A study of Mus musculus with 6 samples.

Results

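Neurotrophic factors are secreted proteins that guide and sustain neurons, and 8 genes of their pathways were followed in the RNA of developing mouse molars. They comprised the ligand genes *Bdnf*, *Ntf3* and *Gdnf* and the receptor genes *Ngfr*, *Ntrk2*, *Ntrk3*, *Ret* and *Gfra1*. The genes were taken as a list of names and found by symbol, and all 8 were among the 27506 genes of the deposited count table. All 8 also passed the filter on low counts that left 19330 genes for testing. The study asked how root formation depends on Ror2, a receptor for non-canonical Wnt ligands, and sequenced pulp RNA from the first molar of the lower jaw at P3.5 (3.5 days after birth). Control mice were *Ror2fl/fl*, with both *Ror2* alleles floxed and no Cre in their labelled genotype. Mutant mice were *Osr2-Cre;Ror2fl/fl*, in which Cre driven from *Osr2* deletes the floxed allele in the dental mesenchyme and leaves the dental epithelium undeleted. Mutants came from *Osr2-Cre;Ror2fl/+* males mated with *Ror2fl/fl* females. Both groups are labelled as C57BL/6 and held 3 libraries each. The library titles repeat the same S numbers in both groups, while the other numbers in the titles differ between the groups. What these numbers stand for is not given. If they mark separate batches, those cannot be told apart from genotype. Neither the sources of the libraries nor any pooling of animals is given, so the p-values measure the spread between libraries.

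BDNF and NT-3 (the product of *Ntf3*) belong to the neurotrophin family. Each binds a preferred receptor tyrosine kinase, BDNF binding NTRK2 and NT-3 binding NTRK3, while NGFR binds all neurotrophins with low affinity. GDNF belongs to another family, whose ligands first bind a GFRA co-receptor on the cell surface, and the complex then activates the receptor tyrosine kinase RET. GFRA1 is the preferred co-receptor of GDNF, and GFRA2 that of neurturin. In teeth, these factors are known from the dental mesenchyme and pulp, which sensory axons of the trigeminal ganglion enter after birth. The cell bodies of these neurons lie outside the tooth, so most of their mRNA is not in a pulp sample.

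The libraries held between 56134770 and 62628940 estimated counts, and levels are given as CPM, the usual depth-scaled read count, with library sizes scaled by the TMM method. *Ror2* itself fell from 37.1 ± 1.03 to 27.4 ± 0.961 CPM (SD, n = 3; adjusted p = 0.0134 by the quasi-likelihood test of edgeR), with exons inside and outside the floxed region counted together. The labelled tissue was checked against marker lists. The mesenchymal genes *Col1a1* and *Dspp* were high in all libraries, but the 10 dental epithelium markers, led by the enamel genes *Amelx*, *Ambn* and *Enam*, summed to between 172400 and 192600 CPM in control and between 185800 and 256400 CPM in mutant libraries. The libraries labelled as pulp thus held abundant RNA of enamel genes. Of the skeletal muscle markers 8 of 9 tested fell, and their sum was 12.2 to 42.9 CPM in control and 3.57 to 4.70 CPM in mutant libraries. Control library 1, whose label carries another letter code than the other controls, had 11080 CPM of *Col1a1*, against 37130 and 26560 CPM in control libraries 2 and 3. Low values were not limited to it, as mutant libraries 1, 2 and 3 had 28300, 9883 and 13010 CPM.

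Among the receptors, *Ret* and *Ntrk2* fell in *Osr2-Cre;Ror2fl/fl* molars, and no member rose. *Ret* fell by 54.3% and *Ntrk2* fell by 28.0%. *Ntrk3* differed by -43.2% but did not pass the threshold, and none of the 3 ligand genes passed it. The members that fell are 2 of 8, where 9.84% of all genes tested fell and 20.2% changed in either direction (adjusted p under 0.05, edgeR). By the fitted fold change 6 of the 8 members were lower, against 49.3% of all genes, and the groups did not overlap for 2 of 8, both with the mutant libraries below, whereas 44.7% of all genes had groups apart, 22.1% with the mutants below and 22.6% with the mutants above. The median log2 fold change of the members was -0.17 against 0.01 for all genes tested. The members were chosen with earlier results of these data known, so these comparisons with all genes are descriptions and not tests. In bulk RNA, fewer cells of a type and less RNA per cell cannot be told apart.

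**Figure D1:**
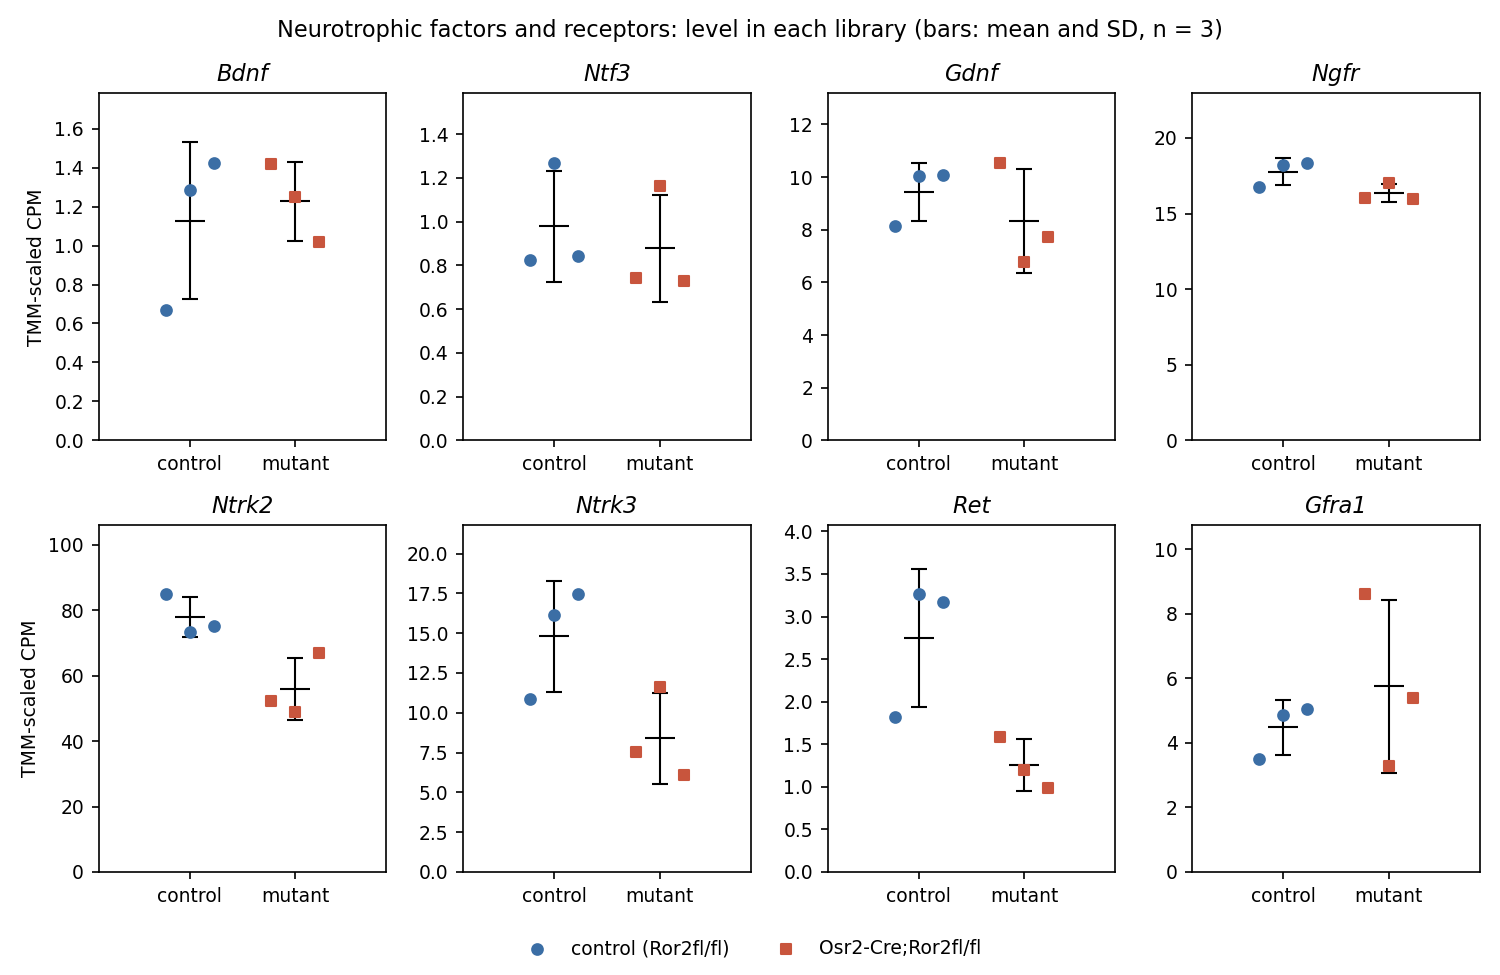
Level of each of the 8 genes in TMM-scaled CPM (vertical axes, each starting at 0) in the 3 control libraries (circles) and 3 mutant libraries (squares), with mean and SD as bars. The groups are separate for *Ntrk2* and *Ret*, while mutant library 1 stands above all others for *Gfra1* at 8.59 CPM.

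*Ret* (ENSMUSG00000030110.13, chromosome 6 from 118151745 to 118197718 on the minus strand of mm10) encodes the signalling receptor of the GDNF family. It stood at 1.82, 3.26 and 3.17 CPM in controls, compared with 1.59, 1.20 and 0.983 CPM in mutants. Every mutant library lay below every control library, with control library 1 close to mutant library 1. On the log2 scale the change was -1.13 (standard error, SE, 0.29; edgeR adjusted p = 0.0323), which places the mutant level between 0.287 and 0.729 times the control level (95% interval). Between 58 and 196 counts per library lay behind these values. The call was lost without control library 2, without control library 3, without mutant library 2 and without mutant library 3, with log2 fold changes from -1.08 to -0.98 and adjusted p-values up to 0.13 (edgeR).

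*Gfra1* (ENSMUSG00000025089.15, chromosome 19 from 58235604 to 58455909, minus strand), the GDNF co-receptor, did not follow *Ret*. It stood at 3.51, 4.87 and 5.04 CPM in controls, compared with 8.59, 3.28 and 5.39 CPM in mutants. The groups overlapped, since the mutant libraries held both the highest and the lowest value. The log2 fold change was 0.36 (SE 0.32; edgeR adjusted p = 0.438), with a 95% interval of the fold from 0.769 to 2.16. Its sign rested on mutant library 1, without which it was -0.04 (edgeR adjusted p = 0.92). The antisense gene *Gm16277* overlaps 416 exonic bases of *Gfra1*, and the use of strand in counting is not given in the sources used here.

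*Gdnf* (ENSMUSG00000022144.4, chromosome 15 from 7810846 to 7837575, plus strand), the ligand of this receptor pair, stood at 8.15, 10.1 and 10.1 CPM in controls, compared with 10.5, 6.76 and 7.71 CPM in mutants. The highest value of all was in mutant library 1 and the groups overlapped. On the log2 scale the difference was -0.18 (SE 0.18; edgeR adjusted p = 0.509), and the 95% interval of the fold ran from 0.661 to 1.19.

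*Ntrk2* (ENSMUSG00000055254.15, chromosome 13 from 58806569 to 59133970, plus strand) encodes the BDNF receptor. It stood at 84.9, 73.5 and 75.4 CPM in controls, compared with 52.4, 49.0 and 66.9 CPM in mutants. All mutant libraries were below all controls, and mutant library 3 came closest to them. The log2 fold change was -0.47 (SE 0.13; edgeR adjusted p = 0.0401), a level between 0.584 and 0.888 times that of controls (95% interval). The call was lost in 5 of the 6 fits that each left out 1 library, with log2 fold changes between -0.52 and -0.38 and adjusted p-values up to 0.11 (edgeR), and it was kept without mutant library 3 (-0.62, edgeR adjusted p = 0.011). Once offsets for the GC content and length of exons were added, it was -0.22 (edgeR adjusted p = 0.26). *Ntrk2* has 10 annotated transcripts, and full-length and truncated receptors were counted together.

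*Ntrk3* (ENSMUSG00000059146.12, chromosome 7 from 78175959 to 78738012, minus strand), the NT-3 receptor, stood at 10.9, 16.1 and 17.4 CPM in controls, compared with 7.56, 11.6 and 6.07 CPM in mutants. Mutant library 2 was above control library 1, and the other mutant libraries were below every control. The log2 fold change of -0.82 (SE 0.26; edgeR adjusted p = 0.0586) did not pass the threshold, although the unadjusted p was 0.0135. It passed with DESeq2's Wald test (adjusted p = 0.012), with scaling by library size alone (edgeR adjusted p = 0.045) and without mutant library 2 (-1.11, edgeR adjusted p = 0.016). Once offsets for the GC content and length of exons were added, it was -0.20 (edgeR adjusted p = 0.71). *Ntrk3* has the longest exon set of the members, 30170 bases over 20 annotated transcripts.

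*Ngfr* (ENSMUSG00000000120.6, chromosome 11 from 95568818 to 95587735, minus strand), the receptor shared by all neurotrophins, varied least among libraries. It stood at 16.8, 18.2 and 18.4 CPM in controls, compared with 16.0, 17.1 and 16.0 CPM in mutants, and the groups overlapped at control library 1. The fitted log2 difference was -0.12 (SE 0.10; edgeR adjusted p = 0.394), with a fold between 0.787 and 1.08 (95% interval). With the offsets for GC content and length it was -0.35 and passed the threshold (edgeR adjusted p = 0.048).

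Both neurotrophin ligands were rare. *Bdnf* (ENSMUSG00000048482.14, chromosome 2 from 109674700 to 109727007, plus strand) stood at 0.668, 1.29 and 1.43 CPM in controls, compared with 1.42, 1.25 and 1.02 CPM in mutants. The lowest library was control library 1, and the other 5 lay close together. The log2 fold change was 0.13 (SE 0.32; edgeR adjusted p = 0.797), and without control library 1 it was -0.15 (adjusted p = 0.70). The antisense gene *Gm45346* shares 896 exonic bases with *Bdnf*. *Ntf3* (ENSMUSG00000049107.13, chromosome 6 from 126101412 to 126166910, minus strand) stood at 0.823, 1.27 and 0.842 CPM in controls, compared with 0.744, 1.16 and 0.729 CPM in mutants. In each group library 2 was the highest, and the groups overlapped. The log2 fold change was -0.15 (SE 0.31; edgeR adjusted p = 0.742), with the sign turned to 0.07 without control library 2 (adjusted p = 0.93). The counts of these ligands were between 43 and 88 per library, and the 95% intervals of the folds, 0.656 to 1.82 for *Bdnf* and 0.551 to 1.47 for *Ntf3*, reached below and above 1. For the 3 ligand genes together, 0 passed at an unadjusted p under 0.05 in edgeR and 0 were called by DESeq2's Wald test.

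**Figure D2:**
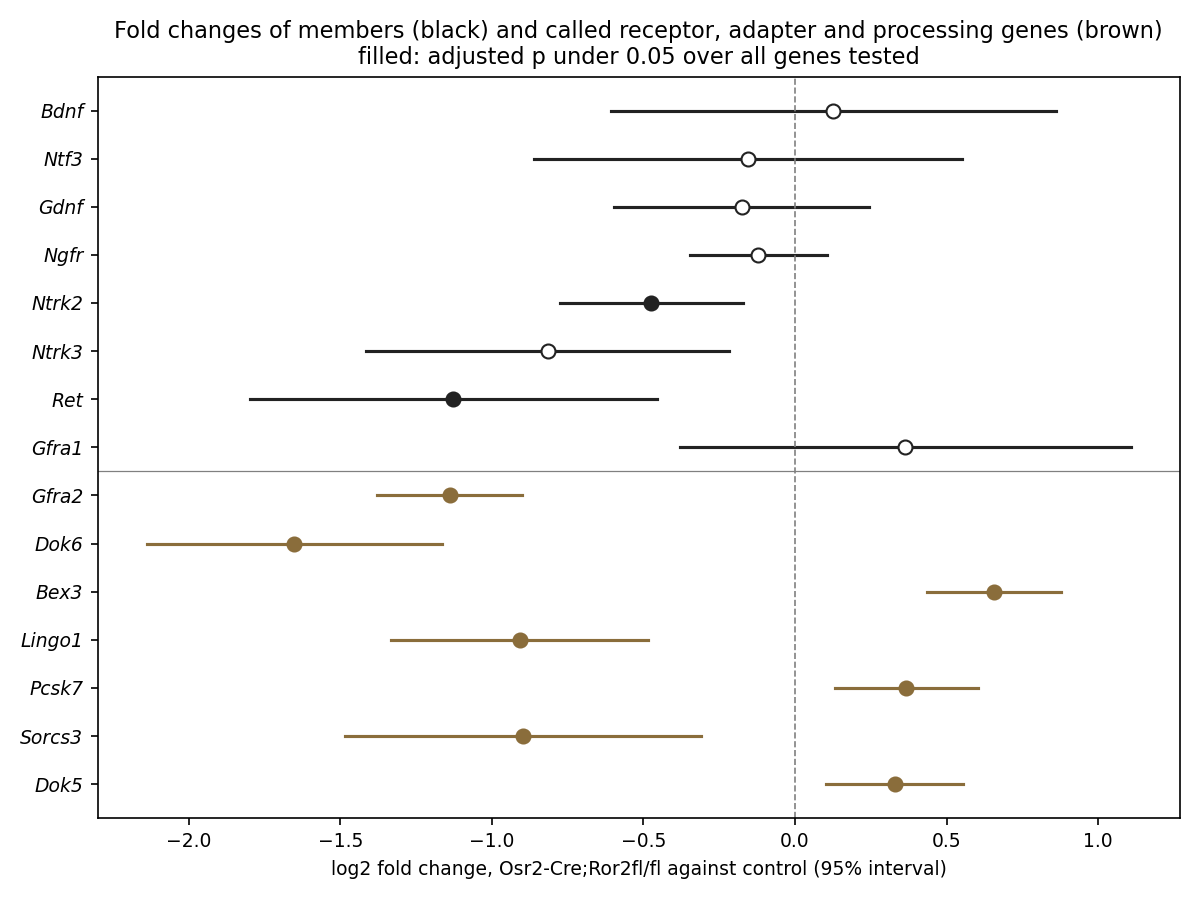
Log2 fold change of *Osr2-Cre;Ror2fl/fl* against control libraries (horizontal axis) with 95% intervals from edgeR for the 8 members in black and 7 receptor, adapter and processing genes past the threshold in brown. Filled points have an adjusted p under 0.05 over all genes tested, and among the members only *Ntrk2* (-0.47) and *Ret* (-1.13) are filled.

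Levels of different genes were compared per length, as CPM per kb of annotated exon. In control libraries *Ngfr* was highest at 5.16 ± 0.253 CPM per kb, followed by *Ntrk2* at 4.04 ± 0.317 and *Gdnf* at 2.56 ± 0.299 (SD, n = 3). *Gfra1* (0.817 ± 0.153), *Ntf3* (0.571 ± 0.147), *Ntrk3* (0.491 ± 0.115), *Ret* (0.407 ± 0.120) and *Bdnf* (0.181 ± 0.0649) followed. Over all 6 libraries *Ngfr* did not overlap with *Ntrk2*, nor *Gdnf* with *Gfra1*, while each other pair of neighbours in this order overlapped. By mean level per kb, *Ngfr* stood at or above 63.3% of all genes tested, *Ntrk2* 55.4% and *Bdnf* 11.3%. The order depends on the annotation, since all annotated exons count towards the length even if this tissue does not use them.

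**Figure D3:**
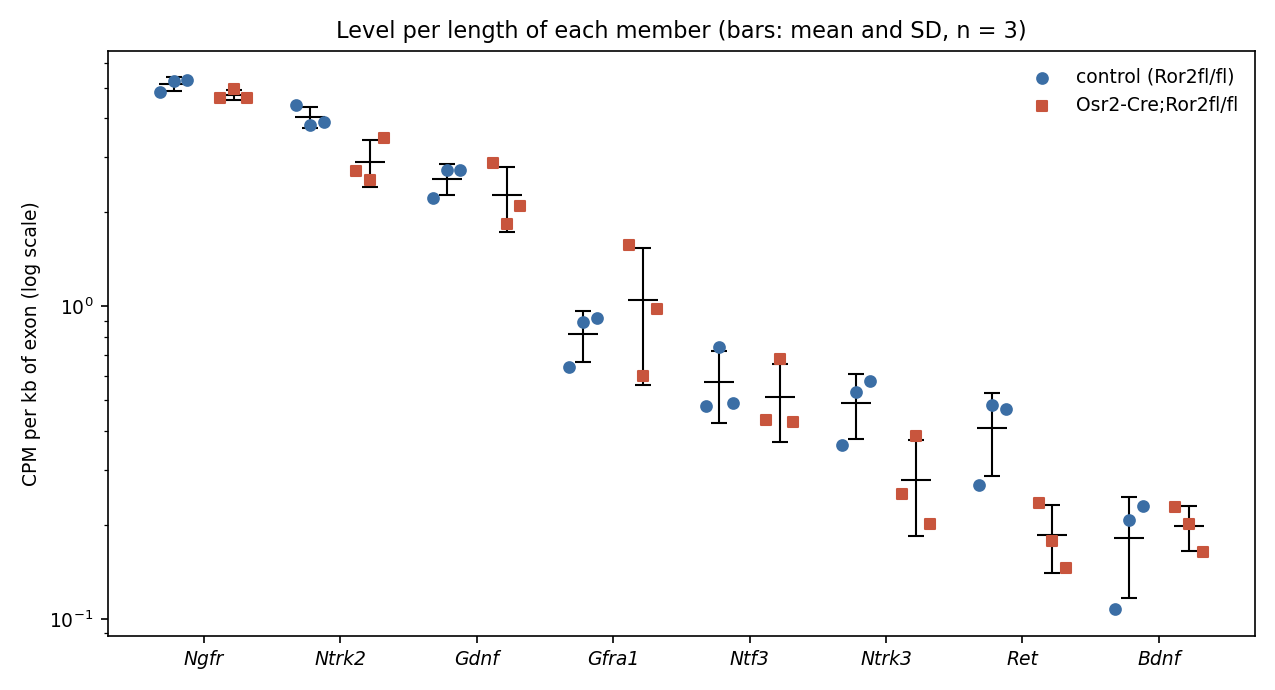
Level per length of each member, in CPM per kb of exon on a log axis, for the 3 control libraries (circles) and 3 mutant libraries (squares), with mean and SD as bars and genes ordered by control mean. *Ngfr*, *Ntrk2* and *Gdnf* lie at or above 1.84 CPM per kb in every library, and the other 5 genes at or below 1.57.

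Ratios of partner genes within a library do not depend on how libraries are scaled. The log2 ratio of *Gfra1* to *Ret* counts was 0.95, 0.58 and 0.66 in control and 2.43, 1.45 and 2.44 in mutant libraries. Every mutant library was above every control, a mean difference of 1.38. The ratio of *Ntf3* to its receptor *Ntrk3* was -3.71, -3.66 and -4.36 in control and -3.33, -3.31 and -3.04 in mutant libraries, again without overlap and with a difference of 0.68. For both, an exact two-sided permutation test gave p = 0.1, the smallest that 3 libraries against 3 allow, or 0.2 adjusted over the 4 ratios compared. The ratio of *Bdnf* to *Ntrk2* differed by 0.67 (exact permutation p = 0.3) and that of *Gdnf* to *Gfra1* by -0.47 (exact permutation p = 0.2), and in both the groups overlapped. No ratio could reach a p under 0.05 in this design. The ratios were not computed with the offsets for GC content and length. With these offsets the log2 fold changes in edgeR were -0.24 for *Ntf3* and -0.20 for *Ntrk3*. Those of *Gfra1* and *Ret* were 0.37 and -1.13.

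**Figure D4:**
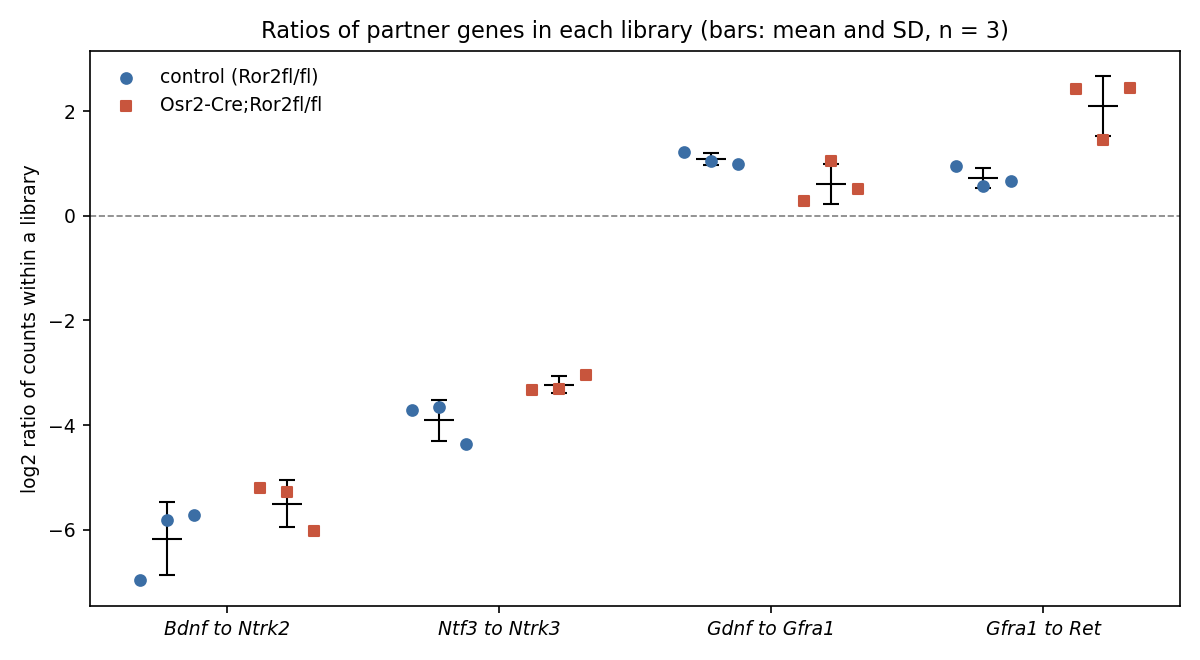
Log2 ratio of the counts of a ligand or co-receptor to those of its receptor in each library (vertical axis; dashed line, equal counts), for 3 control (circles) and 3 mutant libraries (squares), with mean and SD as bars. *Gfra1* to *Ret* and *Ntf3* to *Ntrk3* are higher in all mutant than in all control libraries.

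Further genes of the same pathways were taken from 4 lists of 46 genes in all, of which 41 were tested. Of these 5 fell and 3 rose, and their median log2 fold change was -0.10. In the other receptors and co-receptors 3 of 11 fell and 0 rose, with 5 at an unadjusted p under 0.05 in edgeR and 4 called by DESeq2. In the adapters 1 of 20 fell and 2 rose, and in the genes of neurotrophin processing 1 of 6 rose. Across all genes 9.84% fell and 10.4% rose, and DESeq2 called 5410 of 19316. In edgeR a gene with an unadjusted p of 0.052 ranked 7523 of the 19330 tested, so an unadjusted p under 0.05 was common. The number of pathway genes called was 3 rather than 8 without control library 2 or without control library 3, and 5 without mutant library 1 or without mutant library 3.

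The smallest p-values among these genes were those of a co-receptor and an adapter that act with RET. *Gfra2* (ENSMUSG00000022103.10, chromosome 14 from 70890120 to 70979838, plus strand), the neurturin co-receptor, stood at 67.5, 81.5 and 82.4 CPM in controls, compared with 35.7, 35.5 and 33.8 CPM in mutants. Its mutant libraries lay within a narrow range, far below the controls, with a log2 fold change of -1.14 (SE 0.10; edgeR adjusted p = 4.7e-04). *Dok6*, an adapter that binds the activated RET receptor, stood at 28.5, 42.9 and 40.1 CPM in controls, compared with 15.2, 9.57 and 10.7 CPM in mutants. The log2 difference was -1.65 (SE 0.21; edgeR adjusted p = 0.00257). *Gfra2* and *Dok6* passed the threshold in all 17 alternative fits tried. In these fits the log2 fold changes ran from -1.27 to -1.09 for *Gfra2* and from -1.87 to -1.07 for *Dok6*. The -1.07 of *Dok6* came with the offsets for GC content and length. Like *Ret*, *Gfra2* and *Dok6* were lowest among controls in control library 1. The mutant and control libraries were apart for *Gfra2* and overlapped for *Gfra1*, and the difference between the changes of these co-receptors was not tested. *Dok5*, an adapter related to *Dok6*, stood at 33.1, 29.2 and 30.2 CPM in controls, compared with 38.3, 36.0 and 41.9 CPM in mutants (log2 fold change 0.33, SE 0.10, edgeR adjusted p = 0.0497), a rise that passed in only 4 of 17 alternatives.

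*Sorcs3*, of the sortilin receptor family, fell from 2.55 ± 0.208 to 1.37 ± 0.448 CPM (adjusted p = 0.0426), and *Lingo1*, a partner of NGFR in the Nogo receptor complex, from 3.94 ± 0.448 to 2.09 ± 0.287 CPM (adjusted p = 0.015, both from edgeR). The call of *Sorcs3* held in 9 of 17 alternatives and was lost in 5 of the 6 fits that left out 1 library, all but the fit without mutant library 1, with adjusted p-values up to 0.15 (edgeR). *Lingo1* lost its call without control library 2 (edgeR adjusted p = 0.08) and without control library 3 (0.072). *Ntf5*, which encodes another NTRK2 ligand, stood at 14.2, 11.9 and 12.3 CPM in controls, compared with 14.6, 16.1 and 18.4 CPM in mutants and did not pass the threshold (log2 fold change 0.35, edgeR adjusted p = 0.0842).

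The other genes that rose were *Bex3*, whose product binds NGFR, and *Pcsk7*, a proprotein convertase. *Bex3* stood at 49.0, 42.2 and 43.8 CPM in controls, compared with 71.4, 74.6 and 66.8 CPM in mutants (log2 fold change 0.66, SE 0.10, edgeR adjusted p = 0.00464). *Bex3* passed in all 17 alternatives, with log2 fold changes from 0.38, with the offsets for GC content and length, to 0.71. It shares 86 read-length stretches (75 bases) with *Bex2*, and its count is uncertain to that extent. *Pcsk7* rose from 23.1 ± 1.85 to 29.7 ± 1.96 CPM (edgeR adjusted p = 0.0411). It passed in 6 of 17 alternatives, and its exons overlap those of *Rnf214* and *Tagln* on the other strand.

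**Figure D5:**
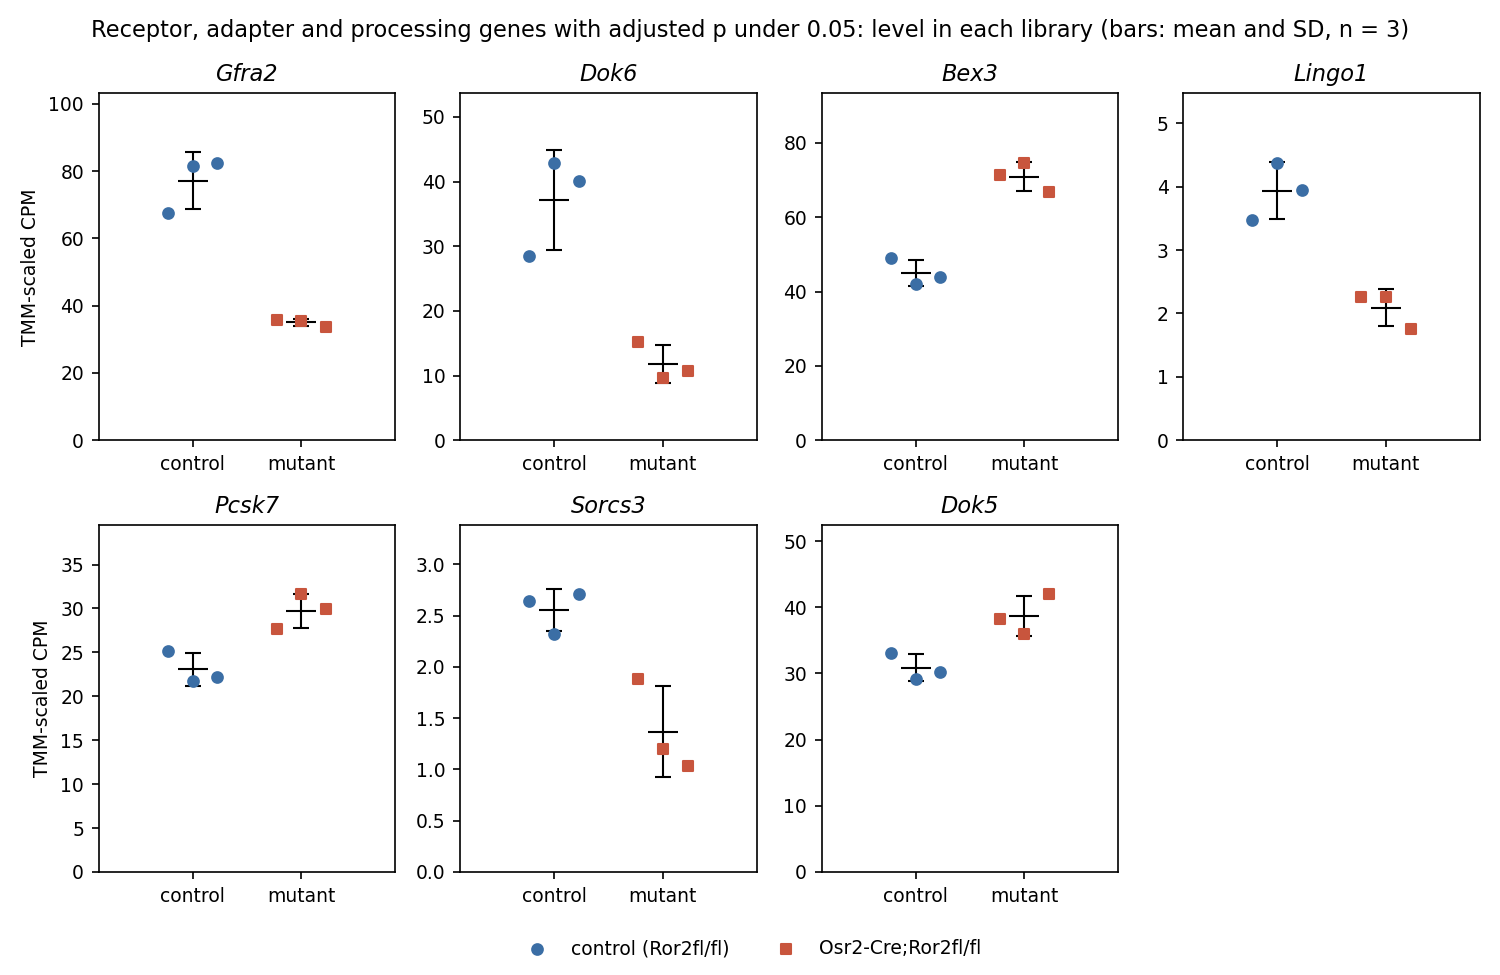
Level of 7 receptor, adapter and processing genes past the threshold in TMM-scaled CPM (vertical axes, each starting at 0), ordered by p-value, in 3 control (circles) and 3 mutant libraries (squares), with mean and SD as bars. *Gfra2* lies at 67.5 to 82.4 CPM in control and 33.8 to 35.7 CPM in mutant libraries, and no gene shown has overlapping groups. The genes were chosen by the threshold in these same libraries, which favours separate groups, and 44.7% of all genes tested had groups apart.

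Cells that could carry these receptors were followed through marker lists. Of 12 Schwann cell markers 2 rose and 0 fell, and their sum was 39.5 to 49.1 CPM in control and 49.7 to 54.2 CPM in mutant libraries. The defining factor *Sox10* stood at 0.388, 0.429 and 0.632 CPM in controls, compared with 0.288, 0.728 and 0.237 CPM in mutants, and the groups overlapped. Of 13 neuron markers 7 were tested and 1 rose, *Stmn2*. The sum of the neuron markers was 99.3 to 139 CPM in control and 110 to 151 CPM in mutant libraries, mostly from *Tubb3* and *Uchl1*, while *Prph* and *Scn10a* had at most 0.0508 CPM in any library, which is at most 3 counts. The skeletal muscle markers summed to 25.1, 42.9 and 12.2 CPM in control libraries 1, 2 and 3 and to 3.57, 4.70 and 4.69 CPM in the mutant libraries, so that their sum, like *Ret*, was lower in every mutant library than in every control. Among controls, library 2 had the highest sum and the highest *Ret* (3.26 CPM). Control library 3 had the lowest sum, the highest *Ntrk3* and *Ret* at 3.17 CPM. Control library 1, with the middle sum, had the lowest *Ret* of the controls (1.82 CPM). Across all genes tested 9.84% fell and 10.4% rose. The part of these cell types in the results was not tested.

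For the remaining lists, 2 of 14 dental mesenchyme markers fell and 1 rose, and the sum was 18090 to 52800 CPM in control and 15610 to 41080 CPM in mutant libraries. Of the odontoblast and endothelium markers, 7 each, 0 passed the threshold, with 0 at an unadjusted p under 0.05 and 0 called by DESeq2. Of 10 dental epithelium markers 0 passed in edgeR, with 4 at an unadjusted p under 0.05 and 3 called by DESeq2. Among 7 perivascular markers 1 fell, among 7 leukocyte markers 1 fell, and among 6 erythroid markers 2 fell. Of all genes tested 9.84% fell and 10.4% rose in edgeR, and DESeq2 called 5410 of 19316. As stated above, an unadjusted p under 0.05 was common across all genes.

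The pattern of *Ret*, the member with the smallest p-value, was compared with all genes tested. The 3 genes with the highest Pearson correlation of log2 CPM over the 6 libraries were *Rftn2* (r = 0.999), *Ghr* (r = 0.997) and *Arhgef6* (r = 0.996). Because they were picked for their likeness to *Ret*, all 3 share with it a control library 1 below the other controls and mutant libraries below all controls. *Rftn2* stood at 17.2, 22.9 and 22.9 CPM in controls, compared with 16.1, 14.5 and 12.9 CPM in mutants. The correlations describe these 6 libraries, which also share their depth and grouping.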

How the data were processed

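RNA-seq of dental pulp was deposited as a table of estimated counts per gene, which the authors made without normalization, and as a table of normalized signal. Per the methods, single-end reads of 75 cycles were aligned to mm10 with TopHat and counted over exons. The submitters' processing notes name STAR 2.6.1d and Partek. The counter and its use of strand are not given in the sources used here. In the signal table deposited by the authors, each value is the count plus 1 times 1 factor per library. The 6 sample columns matching no sample label were not used.

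Estimated counts were rounded to whole numbers, scaled with TMM, filtered with filterByExpr and compared with the quasi-likelihood test of edgeR 4.0.16 (R 4.3.3), and p-values were adjusted by Benjamini-Hochberg across the 19330 genes that passed. Standard errors and 95% intervals come from the F statistic. DESeq2 1.42.0 and limma 3.58.1 (pseudocounts 1 and 0.1) served as alternatives, besides other scalings, filters, offsets for GC content and length, a replicate block and fits without 1 library. Ratios used a prior count of 0.5. Scripts were tested on simulated data. Coordinates and exons are those of GENCODE M21 (mm10), whose gene starts equal those of the table for all 27506 genes. The biological coefficient of variation was 18.7%, and 3 counts, the floor, correspond to 0.0466 to 0.052 CPM.

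The members and lists were chosen with earlier results of these data known. The text names all members, *Ror2* and the receptor, adapter and processing genes past the threshold (up to 5 per list). It also names the 3 most abundant dental epithelium and neuron markers, *Col1a1*, and the 3 genes most like the member with the smallest p-value. *Ntf5*, *Dspp*, *Sox10*, *Prph*, *Scn10a*, *Nefm*, *Nefl*, *Snap25* and *Calca* were named after their values were seen. Some genes of the lists are counted in totals and not reported here. Same-numbered libraries of the groups did not vary together (r = -0.1, -0.08 and -0.004), and for differently numbered libraries r ran from -0.037 to 0.1. With 3 libraries per group this check cannot exclude a pairing. The methods speak of pairs of samples without saying how they were formed, and the main fit used no block.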

Additional observations from a re-analysis of the deposited data

How the results depend on the processing

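The alternatives gave 152 fold changes for the 8 members and *Ror2*, of which 127 kept their direction and side of the threshold, 18 kept the direction and lost the threshold, 4 gained it and 3 turned sign. The turned signs were those of *Bdnf* without control replicate 1 (-0.15), *Ntf3* without control replicate 2 (0.07) and *Gfra1* without mutant replicate 1 (-0.04), none of which had passed the threshold. *Ntrk3* passed with DESeq2's Wald test and with scaling by library size alone (-0.82 in both). *Ntrk2* lost the threshold without a filter on low counts (-0.48). With offsets for GC content and length, *Ntrk2* lost it (-0.22), *Ngfr* gained it (-0.35) and 5 rather than 8 pathway genes passed. The cause was not tested. With the replicate number as a block, 2013 rather than 3906 genes and 4 pathway genes passed, and *Ntrk2* (-0.48), *Ret* (-1.11) and *Ror2* (-0.43) did not. With the block and a GC offset together, 1323 genes and 4 pathway genes passed, and *Ntrk2* (-0.46) and *Ret* (-1.18) did not. The methods speak of pairs of samples, and same-numbered libraries also share an S number in their titles. How any pairs were formed is not given, so the calls lost under the block are a limit of these results. Under the block alone, the fold changes of *Ntrk2*, *Ret* and *Ror2* stayed close to those of the main fit.

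Leaving out 1 library at a time, which leaves fewer samples, gave 872 to 5001 genes past the threshold and 3 to 6 pathway genes. The log2 fold changes ran from -0.62 to -0.38 for *Ntrk2*, -1.36 to -0.98 for *Ret*, -1.11 to -0.63 for *Ntrk3*, -0.46 to -0.41 for *Ror2*, -0.15 to 0.32 for *Bdnf*, -0.40 to 0.07 for *Ntf3* and -0.04 to 0.66 for *Gfra1*. No member passed without control library 2 or without control library 3. Summing members with genes that share their sequence was not run, since no gene in the table shared 20 or more stretches of 75 bases with a member.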

Other observations

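The level of *Gdnf* ordered the libraries otherwise than the genotype did. The 3 libraries with the most *Gdnf* were control libraries 2 and 3 and mutant library 1, at 10.1, 10.1 and 10.5 CPM, and the other 3 had 8.15, 6.76 and 7.71 CPM. The same 3 libraries also had the most *Col1a1*, the main collagen of dentin, at 37130, 26560 and 28300 CPM, against 11080, 9883 and 13010 CPM in the others. *Dspp*, the dentin matrix gene of odontoblasts, was at 7979, 5218 and 6396 CPM in the former and at 2909, 2515 and 4151 CPM in the latter. These genes were set side by side after their values were seen, and the relation was not tested.

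*Nefm*, a neurofilament gene of neurons, had 5, 1 and 1 counts in the control libraries and 41, 4 and 52 counts in the mutant libraries. Mutant libraries 1 and 3 stood apart from the other 4 libraries, and the gene was too low to be tested. It was picked from 13 neuron markers after its values were seen. *Nefl* had a like pattern (4, 0 and 0 against 21, 3 and 18 counts). *Snap25* (65, 54 and 55 against 32, 99 and 48) and *Calca* (57, 42 and 55 against 32, 76 and 58) did not, and were highest in mutant library 2. Of the 7 neuron markers tested, 1 rose.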
